A study of Gossypium hirsutum with 51 samples.

Results

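Wild-type ovules of upland cotton (Gossypium hirsutum) aged +15 days post anthesis were compared with wild-type ovules aged +3, the day the flower opens counting as 0. The comparison was taken from the 6 arrays whose titles pair +15 with +3, out of 51 arrays in the series. They form 3 sets, each of a forward array with +15 RNA in Cy5 and a dye swap with +15 RNA in Cy3. Of 11706 spots in the table, the 11682 cDNA clones with names starting in CM were used, and 10685 of them had both arrays measured in at least 2 sets and were tested. Of the 997 others, 851 had 1 complete set and 146 had none; in 839 of the 851 that set was set 3. An array measured between 9954 and 11577 clones.

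The series hybridised total RNA of cotton ovules to spotted cDNA arrays with 2 dyes. Wild-type ovules of ages -3, 0, +5, +10, +15 and +20 were each set against wild-type ovules of age +3, and ovules of a mutant that the labels call fl were set against wild type at +3 and at +10. The design text calls the sets biologically independent, so a set is 1 replicate and its 2 arrays were averaged; whether a set holds 1 plant or a pool is not given in the sources used here. The comparisons of +10 and of +20 with +3, and of fl with wild type at +10, are used below beside that of +15 with +3. All groups here but fl are wild type.

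Cotton fibres are single cells that grow out of the outer cell layer of the ovule. They start to grow around the day of flowering, elongate by expanding a thin primary wall, and later lay down a thick secondary wall of nearly pure cellulose while the embryo and the seed coat mature inside the ovule. Fibre growth needs wall loosening, a cytoskeleton of actin filaments and microtubules, lipids for new membrane and a large supply of sugar. The fl line is known as a fuzzless-lintless mutant, whose ovules bear no fibres. The labels name whole ovules as the source and do not say whether the fibres were left on. In such bulk samples a change in the share of a cell type and a change in the RNA per cell cannot be told apart.

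The deposited table and the reference table used here pair no CM clone with a gene, so clones are given by their array names. The stage could therefore not be checked against marker genes. Values are log2 ratios of +15 over +3, and errors are SD over n = 3 sets unless stated. The direction of the ratios is likely rather than stated. It rests on the order of the titles and on a control spot named HEX, which read -10.48, -9.97 and -9.70 on the forward arrays and 9.62, 9.25 and 11.9 on the dye swaps. If the ratios run the other way, higher and lower exchange places throughout.

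At +15, 7266 of 10685 clones, or 68% of those tested, differed from +3 (limma, Benjamini-Hochberg adjusted p under 0.05). Higher at +15 were 3361 clones (31.5%), and 3905 (36.5%) were lower. Most of the clones called, 5642 (77.6%), differed by less than 2-fold, and 716 (9.85%) had a mean under 0.3 in size. At least 2-fold higher were 838 clones (7.84%), at least 2-fold lower 786 (7.36%). Further out, higher clones outnumbered lower ones, with 200 clones at least 4-fold higher and 115 lower, and 64 at least 8-fold higher and 25 lower. At least 32-fold higher were 7 clones and 2 were lower. When tested against a change of 2-fold rather than of 0 (limma treat, adjusted p under 0.05), 445 clones passed on the higher side and 331 on the lower. Scaling all arrays to 1 spread gave 674 at least 2-fold higher and 500 lower. The median over clones was -0.05, the quartiles were -0.45 and 0.39, and the 1st and 99th percentiles were -2.08 and 2.58. Each +15 array averaged between -0.0013 and 2e-04 over clones, so the deposited ratios appear to have been centred. A middle near 0 then follows from the centring, and higher and lower are relative to it. A shift of all clones together could not be seen.

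The direction of the larger differences was the same on nearly every array. Of the 1393 clones called at least 2-fold and measured on all 6 arrays, 1390 had 1 sign on all 6. At least 2-fold in each of the 3 sets taken alone were 561 clones in the higher direction and 449 in the lower, of 9239 clones with 3 sets. The size of the differences varied more between sets than their sign. Set 3 had the widest spread, with an SD over clones of 1.004 against 0.741 in set 1 and 0.762 in set 2. It gave the most extreme of the 3 set values in 484 of 732 clones at least 2-fold higher (66.1%) and in 530 of 661 at least 2-fold lower (80.2%). The median SD over sets was 0.14 over all clones tested, 0.77 for clones at least 8-fold higher and 0.51 for clones at least 8-fold lower. Without set 3, 38 clones were at least 8-fold higher and 14 lower.

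The 12 clones furthest above 0 lay between 4.37 and 5.96 and all had names of plates below 76. Only 5 of them could be tested at -3 and 6 at +5, against 12 and 12 of the 12 lowest clones. Spot intensities were not used, so whether their +3 signal lay near the detection limit was not tested. Clone CM013A08 was highest, at 5.96 ± 1.18, a 62.4-fold higher level at +15 (limma adjusted p = 8.31e-11). It read 4.35 and 6.39 on the forward and swapped arrays of set 1, 5.44 and 4.96 in set 2, and 7.75 and 6.90 in set 3. All 6 values were well above 0, and those of set 3 were the highest. CM041D09 averaged 5.85 ± 2.19 and CM006E07 5.68 ± 1.87, and in both set 3 alone exceeded 6. CM041D09 had a mean of 8.38 over the 2 arrays of set 3, while the other 4 arrays read 3.68 to 5.40.

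**Figure D1:**
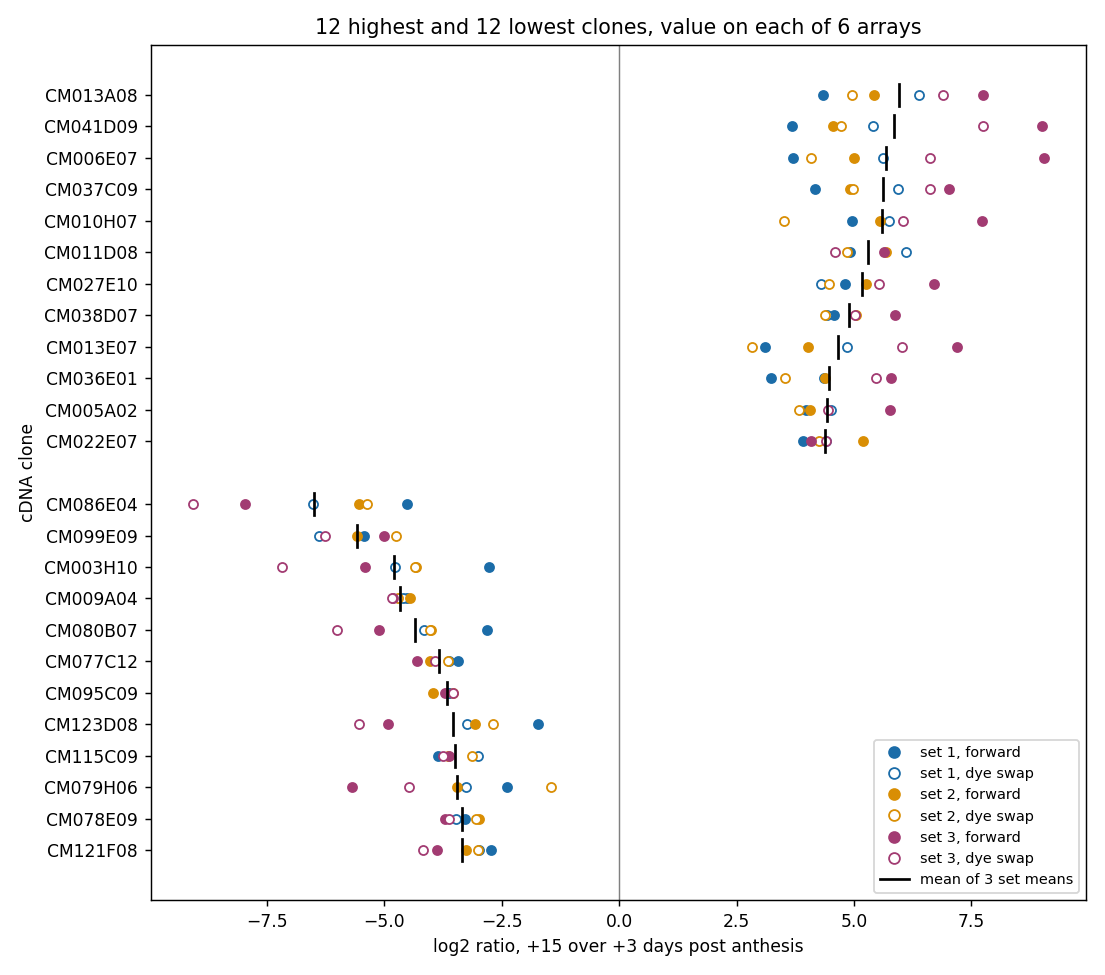
Log2 ratio of +15 over +3 on each of the 6 arrays for the 12 clones with the highest and the 12 with the lowest mean; colours are sets, filled points forward arrays, open points dye swaps and black bars the mean of the 3 set means. The naming rule admitted only clones with 1 sign on all 6 arrays; set 3 lies furthest from 0 in 10 of the 12 higher and 10 of the 12 lower clones.

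Several clones with lower means had less spread over the sets. CM011D08 read 4.92, 6.11, 5.68, 4.86, 5.65 and 4.60 on the 6 arrays in the order of the sets, a mean of 5.30 ± 0.20. CM038D07 read 4.59, 4.44, 5.05, 4.39, 5.89 and 5.02, a mean of 4.90 ± 0.50. Of the higher clones called with 1 sign on all 6 arrays it had the largest moderated t (limma adjusted p = 1.72e-15). CM001A08 had 4.24 ± 0.17, CM057E05 3.79 ± 0.34 and CM083E08 3.75 ± 0.23, and these 3 followed CM038D07 in moderated t. Clones were measured in different numbers of sets over the series, so the order by t is not that by p. The limma adjusted p was smaller for CM057E05 (6.47e-16) and CM083E08 (7.3e-16) than for CM038D07. In CM083E08 the 6 arrays spanned only 3.45 to 4.05. These last 3 lay below the 12 highest. The other clones among the 12 were CM037C09 at 5.61 ± 1.05, CM010H07 at 5.59 ± 1.20, CM027E10 at 5.18 ± 0.83, CM013E07 at 4.67 ± 1.70, CM036E01 at 4.46 ± 1.01, CM005A02 at 4.43 ± 0.60 and CM022E07 at 4.37 ± 0.30. The adjusted p rests on 1 spread per clone, taken from all comparisons in which it was measured, and not on the SD printed beside it; for CM041D09 that spread gave an SE of 0.52.

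Among lower clones, CM086E04 stood furthest out, at -6.50 ± 1.75, a 90.3-fold lower level at +15 (limma adjusted p = 5.11e-12). Its arrays read -4.52 and -6.52 in set 1, -5.54 and -5.37 in set 2, and -7.97 and -9.07 in set 3. CM099E09 followed at -5.58 ± 0.38, with arrays of -5.44, -6.40, -5.58, -4.76, -5.02 and -6.26. Of the lower clones called with 1 sign on all 6 arrays it had the largest moderated t (limma adjusted p = 6.02e-16). For CM099E09 the sets overlapped, and set 3 did not stand apart. CM009A04 was nearly equal on all 6 arrays, from -4.84 to -4.46, at -4.66 ± 0.15. CM095C09 likewise spanned -3.97 to -3.53, at -3.67 ± 0.08. CM115C09, at -3.50 ± 0.16, and CM077C12, at -3.83 ± 0.29, were the next by moderated t, together with CM112G12 at -3.21 ± 0.13. The remaining 6 ran from -4.81 ± 1.32 in CM003H10 to -3.34 ± 0.61 in CM121F08, and the widest of them was CM123D08 at -3.53 ± 1.49. On the 3 arrays that carried +3 RNA in both channels, the 12 highest clones read from -0.46 to 1.09 and the 12 lowest from -0.94 to 0.61.

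The higher and lower clones were unevenly spread over the clone plates, which the clone names number from 1 to 124. On plates 76 to 124 the median clone was at -0.36, and 584 of 4089 clones (14.3%) were at least 2-fold lower and 139 (3.4%) higher. On plates 1 to 75 the median was 0.13, and 202 of 6596 clones (3.06%) were at least 2-fold lower and 699 (10.6%) higher. The medians of all 49 plates from 76 on were below 0, between -0.60 and -0.13, while 71 of the 75 plates before were above 0. The step at plate 76 was present on each of the 6 arrays. In the order of the sets it was -0.42, -0.74 and -0.90 on the forward arrays and -0.15, -0.22 and -0.42 on the dye swaps. The self-to-self arrays, which hold +3 RNA in both channels, stepped by -0.20, 0.18 and -0.44 at the same plate. Their HEX spot read -9.04, 8.245 and -8.587, so step and HEX had the same sign on each. What part of the step goes with the dye was not tested. The boundary was chosen after these values had been seen. Whether the clones of the later plates come from another library is not given in the sources used here, and the part of the plates in the clone differences was not tested. Centring each array separately over the 2 blocks of plates gave 850 clones at least 2-fold higher and 596 lower; 838 of the 838 clones at least 2-fold higher and 785 of the 786 lower were still called, 696 and 488 of them still at 2-fold.

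**Figure D2:**
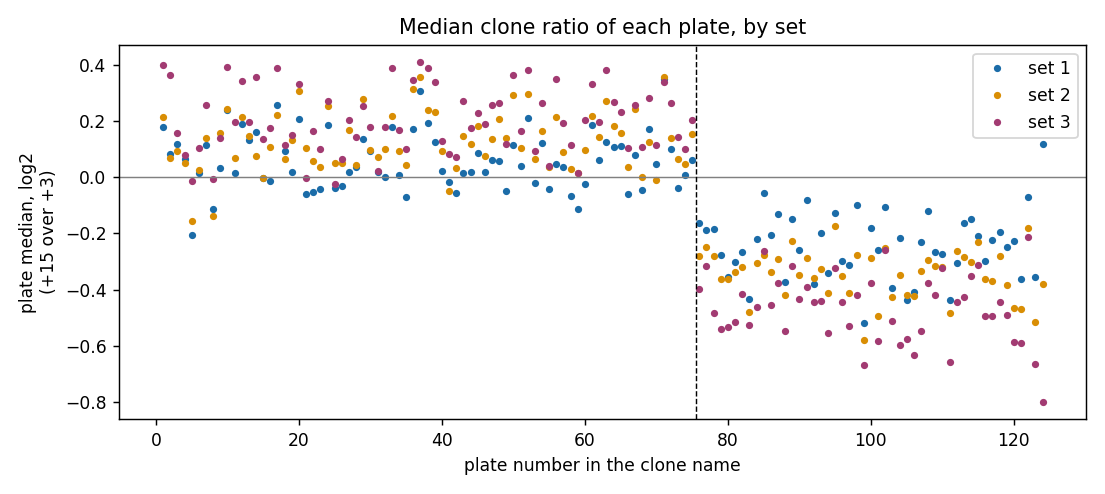
Median log2 ratio of +15 over +3 of the clones on each of 124 plates, on the vertical axis, against the plate number, with 1 point for each of the 3 sets; the dashed line marks the boundary between plates 75 and 76. Plate medians lie mostly above 0 to the left of the line and, but for 1 point of set 1 at plate 124, below 0 to its right.

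The other wild-type ages show how far from +3 the clones that differ at +15 stood at each age. All of these comparisons share the age +3 with +15 against +3, so an error in a clone's +3 level enters each of them, and the lists were chosen by their values at +15. The 200 clones at least 4-fold higher at +15 had median ratios over +3 of 0.05 in ovules of -3, -0.02 in those of 0, 0.90 in +5, 1.54 in +10, 2.68 in +15 and 2.39 in +20. The 115 clones at least 4-fold lower had medians of -0.21, 0.14, -0.74, -1.19, -2.46 and -2.29 in the same order. Both medians lay within 0.21 of the +3 level at -3 and 0, were further from it at +5 and +10, and stood at similar distances at +15 and +20. Single clones were not all near +3 before it. The quartiles of the lower list were -0.908 and 0.18 at -3 and -0.417 and 0.385 at 0. Those of the higher list were -0.338 and 0.56 at -3 and -0.338 and 0.202 at 0. The median over all clones tested at +15 stayed between -0.05 and 0.04. Not all members were measured at each age, and the +5 and +10 comparisons rest on 2 sets. The -3 arrays had means over clones from -0.54 to 0.47, while the arrays used for the other ages averaged close to 0. The -3 ratios were therefore not centred like the rest, and 1 of these arrays measured only 7639 clones. Of the 200 higher clones, 142 were tested at -3 and 131 at +5 (65.5%, against 88.7% of all clones).

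**Figure D3:**
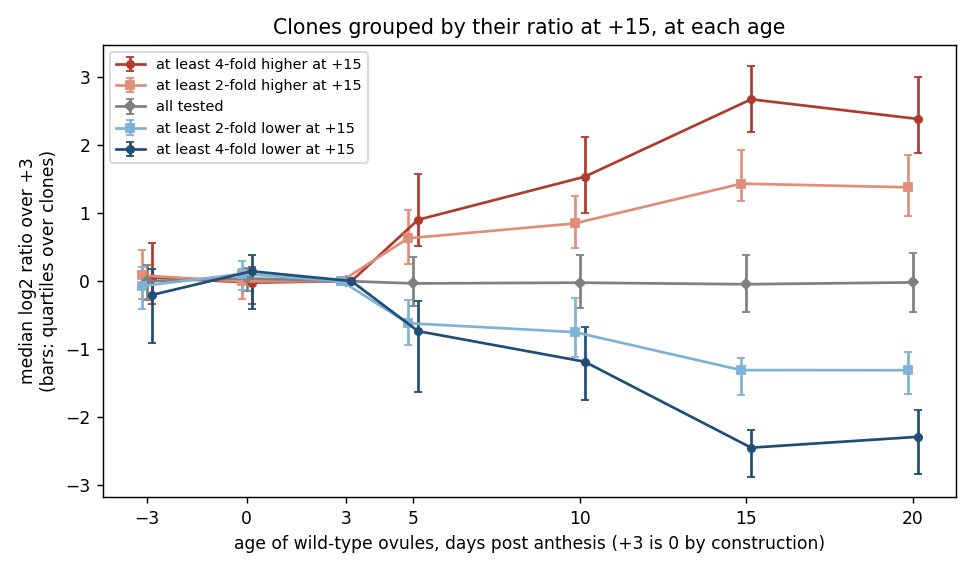
Median log2 ratio over +3 at each age of wild-type ovules, in days post anthesis, for clones at least 2-fold or 4-fold higher or lower at +15 and for all clones tested; bars are quartiles over clones and +3 is 0 by construction. The 4-fold lists reach 2.68 and -2.46 at +15 and 2.39 and -2.29 at +20, from medians between -0.21 and 0.14 at -3 and 0. The -3 arrays were not centred like those of the other ages.

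Set against +10 through +3, 3120 of 10077 clones (31%) differed at +15 (limma contrast, adjusted p under 0.05), 1482 higher (14.7%) and 1638 lower (16.3%). At least 2-fold higher were 292 (2.9%) and at least 2-fold lower 409 (4.06%). Without set 1 in any comparison, 526 were called higher and 555 lower, and without set 3, 927 were called higher. As +10 rests on sets 1 and 3, either choice leaves it 1 set, which is then assumed to vary like the other comparisons. No array held both ages, so each difference is one of 2 ratios over +3. CM041D09 differed most on the higher side, at 5.85 ± 2.19 at +15 and 1.26 ± 0.26 (n = 2) at +10, a difference of 4.59 ± 0.81 (SE, limma adjusted p = 0.000845). CM022E07 stood at 4.37 ± 0.30 at +15 and 0.52 ± 0.44 (n = 2) at +10, and CM063D07 at 2.65 ± 0.17 and -0.53 ± 0.10 (n = 2). Both clones lay within 1 of the +3 level at each age up to +10 and more than 2 above it at +15 and at +20, where they had 4.07 ± 0.56 and 2.88 ± 0.16.

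On the lower side, CM079H06 was at -3.45 ± 1.43 at +15 and 0.45 ± 0.24 (n = 2) at +10, a difference of -3.90 ± 0.61 (SE, limma adjusted p = 7.95e-05). The same clone was also low before +3, at -2.97 at -3 and -2.34 at 0, then 0.76 at +5 and -4.00 at +20, so its highest levels were those of +3 to +10. CM003H10 was at -4.81 ± 1.32 at +15 and -0.68 ± 0.65 (n = 2) at +10. CM086E04 was at -6.50 ± 1.75 at +15 and already at -1.89 ± 0.06 (n = 2) at +10, with -5.82 ± 0.40 at +20. Of the 12 highest clones at +15, CM013A08 already had 5.05 ± 0.03 at +10 and CM006E07 4.32 ± 0.23 (n = 2 each), and for both the contrast did not pass.

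Between +15 and +20 few clones differed, 816 of 10246 (7.96%), 414 higher at +15 (4.04%) and 402 lower (3.92%). At least 2-fold higher at +15 were 83 (0.81%) and at least 2-fold lower 39 (0.381%). The counts at any size moved with single sets, to 112 higher and 62 lower without set 1, 146 and 108 without set 2, and 223 and 221 without set 3. Centring each plate of each array gave 771 and 655. Of the 12 highest and the 12 lowest clones of +15 over +3, 3 were called different from +20. They were CM037C09, at 5.61 ± 1.05 at +15 and 2.69 ± 0.78 at +20, CM027E10, at 5.18 ± 0.83 and 3.34 ± 0.11, and CM115C09, at -3.50 ± 0.16 and -2.95 ± 0.26. For the others the contrast did not pass, which does not show that the ages were alike. The difference of CM037C09, 2.92 ± 0.46 (SE, limma adjusted p = 0.00187), lost its call on the forward arrays alone (1.98, adjusted p = 0.0837).

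CM042D09 had a maximum at +15. It stood at 3.93 ± 0.55 at +15 on arrays of 3.50, 3.56, 3.69, 3.73, 4.86 and 4.25, and at 1.14 ± 0.10 at +20, a difference of 2.79 ± 0.20 (SE, limma adjusted p = 1.50e-08). At +10 it had 1.25 ± 0.04 (n = 2), and the 6 arrays of +15 lay above every set of both other ages. CM084D01 had the same course, at 3.45 ± 0.33 at +15, 1.27 ± 0.16 (n = 2) at +10 and 1.18 ± 0.10 at +20. CM047E06 was lower at +15, at -0.48 ± 0.09, than at +20, at 1.10 ± 0.08, and than at +10, at 1.29 ± 0.18 (n = 2). CM019E04 was higher than +3 at all 3 ages but less so at +15, at 2.16 ± 0.23, against 3.72 ± 0.52 (n = 2) at +10 and 3.71 ± 0.45 at +20; its difference from +20 lost its call on the dye swaps alone (-0.96, limma adjusted p = 0.0801). CM025C03, at 0.10 ± 0.28 at +15 and 1.62 ± 0.05 at +20, lost its call in 4 of the settings tried, among them without set 1 (adjusted p = 0.216).

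Clones of plate 108 stood out in the contrasts with +20 and +10. On plate 108, 41 of 66 clones (62.1%) differed between +15 and +20, against a median of 7.1% and at most 18.4% on the other plates. Against +10 it was 39 of 66 (59.1%), with a median of 30.1% and at most 50.6% elsewhere. In +15 against +3 the ratios of plate 108 did not follow those of plate 107 well by well, with a Pearson r of -0.006 over 92 wells, and the r was 0.019 in 0 against +3 and -0.002 in fl against wild type at +10. In +20 against +3 the 2 plates did match, with an r of 0.953 over 89 wells, and likewise at 0.898 in +10, 0.934 in +5, 0.939 in -3 and 0.861 in fl against wild type at +3. These correlations run across wells and describe the table only. No other pair of plates passed 0.493 in any comparison. The same clone names on plate 108 therefore cannot be matched between these comparisons, and which of them hold the named clones is not given in the sources used here. Of the clones at least 2-fold apart between +15 and +20, 16 of 83 higher and 12 of 39 lower were on plate 108. CM108B04, at 0.99 ± 0.19 at +15 and -1.82 ± 0.27 at +20, CM108H11, at -0.94 ± 0.10 and 1.93 ± 0.05, and CM108H06, at -0.76 ± 0.17 and 1.29 ± 0.12, would otherwise rank among the 3 largest differences on their sides. CM084D01, CM019E04 and CM025C03 took their places when plate 108 was left out, a choice made after the data had been seen. Within +15 against +3 itself, plate 108 held 8 of the 838 higher and 11 of the 786 lower clones at least 2-fold apart.

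**Figure D4:**
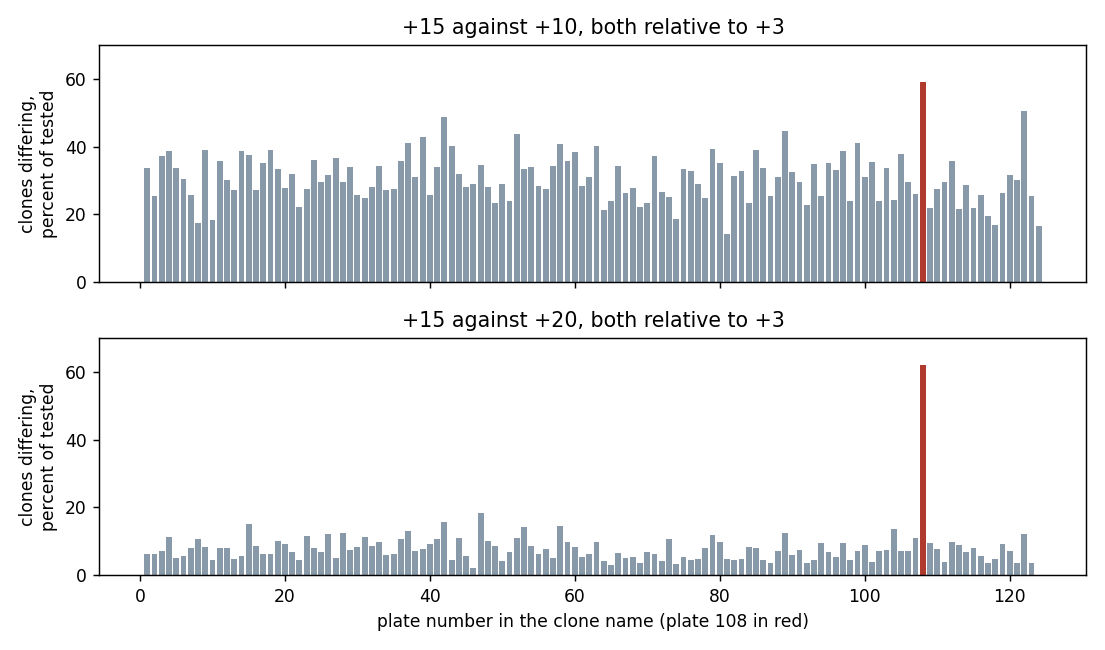
Percent of clones on each plate that differed between +15 and +10 (above) and between +15 and +20 (below), against the plate number, with plate 108 in red. Plate 108 stands at 59.1% and 62.1%, above the highest other plate at 50.6% and 18.4%.

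Ovules of fl at +10 gave a comparison that shares no RNA age with +15 against +3. Over all clones, 6087 of 9199 (66.2%) differed between fl and wild type at +10, 26.4% lower and 39.8% higher in fl, with 9.52% at least 2-fold lower and 3.96% at least 2-fold higher in fl. Clones at least 4-fold higher at +15 went both ways in fl, with 49 of 155 (31.6%) at least 2-fold lower and 36 (23.2%) at least 2-fold higher. Clones at least 4-fold lower at +15 were mostly lower in fl when they differed, with 33 of 77 (42.9%) at least 2-fold lower and 2 (2.6%) higher, and a median of -0.64 against 0.14 over all clones. On plates 76 to 124 alone, 22 of 61 (36.1%) of these lower clones were at least 2-fold lower in fl and 2 higher, against 3.38% lower over all clones of those plates. On plates 1 to 75 it was 11 of 16 (68.8%) and 0, against 13% lower over all clones. Fewer of the members were tested in fl, 77 of 115 lower clones (67%) and 155 of 200 higher clones (77.5%), against 85.2% of all clones.

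**Figure D5:**
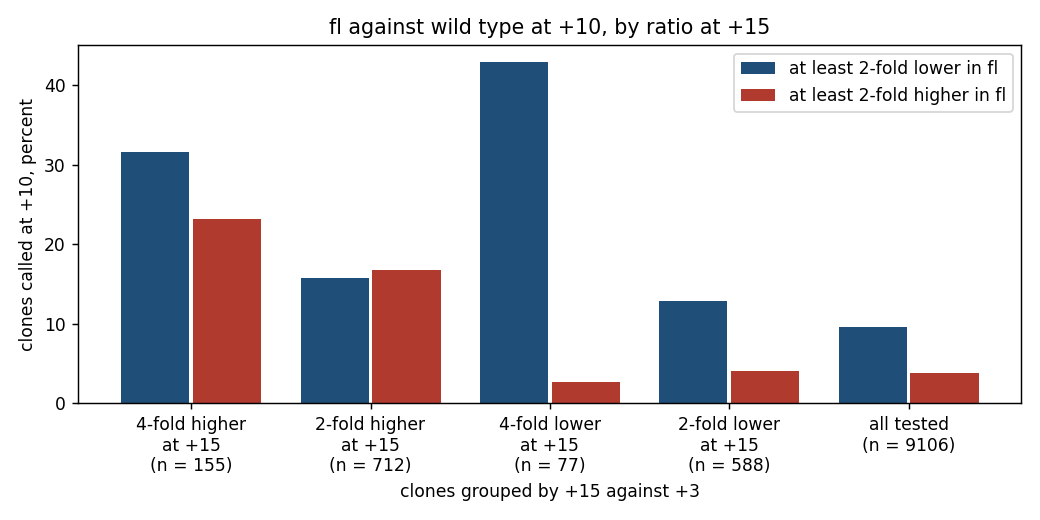
Percent of clones at least 2-fold lower (blue) and at least 2-fold higher (red) in fl than in wild type at +10, for clones grouped by their ratio of +15 over +3 and for all clones tested in both. Clones at least 4-fold lower at +15 show 42.9% lower and 2.6% higher in fl, and clones at least 4-fold higher at +15 show 31.6% and 23.2%.

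The 2-fold lists had smaller shares that differed in fl. Of 588 clones at least 2-fold lower at +15, 76 (12.9%) were at least 2-fold lower in fl and 24 (4.08%) higher, with a median of 0.12. The lower clones lay mostly on plates 76 to 124, where fewer clones of any kind were lower in fl. Within the plates, 39 of 166 (23.5%) on plates 1 to 75 and 37 of 422 (8.77%) on plates 76 to 124 were at least 2-fold lower in fl, against 13% and 3.38% over all clones of the same plates. For the share at least 2-fold higher in fl the values were 3.61% and 4.27%, against 3.02% and 5.26%. Of 712 clones at least 2-fold higher at +15, 112 (15.7%) were at least 2-fold lower and 119 (16.7%) higher in fl, with a median of 0.02. Their share higher in fl depended on the plates, 28 of 109 (25.7%) on plates 76 to 124 and 91 of 603 (15.1%) on plates 1 to 75, against 5.26% and 3.02% over all clones of the same plates.

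The named clones show both directions. CM027E10, 5.18 ± 0.83 at +15, was at -2.95 ± 0.22 in fl against wild type at +10 (limma adjusted p = 3.35e-11), with 3.53 ± 0.08 (n = 2) in wild type at +10 over +3. CM038D07 was at 4.90 ± 0.50 at +15 and 1.72 ± 0.28 higher in fl, and CM083E08 at 3.75 ± 0.23 and 1.96 ± 0.21 higher in fl. Of the 12 highest clones, 9 were tested in fl, of which 3 were lower in fl and 5 higher. Of the 12 lowest, 12 were tested, 8 lower in fl and 1 higher. Over all clones 26.4% were lower in fl and 39.8% higher, and the counts among the 12 highest lie near these shares. CM115C09, -3.50 ± 0.16 at +15, was at -3.42 ± 0.29 in fl (limma adjusted p = 1.80e-15), and CM078E09, -3.36 ± 0.33 at +15, was at -2.28 ± 0.15. The single clone higher in fl was CM077C12, at 0.26 ± 0.25, not far from the median of 0.14 over all clones. CM003H10, CM009A04 and CM079H06 were also lower in fl, at -2.74 ± 1.36, -2.86 ± 1.51 and -2.99 ± 1.34, with wide spreads over sets.

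Beside the clones the arrays carried 11 spots with gene-like names, which the authors left on the unnormalized scale. Per-array offsets therefore remain in their values, and no test was run on them. Spots named TUB1 and TUB2, TUB being the usual name of the tubulins that form microtubules, averaged 0.85 ± 0.20 and 0.32 ± 0.43. Spots named ACT2 and ACT1, ACT being the usual name of actins, averaged 0.77 ± 0.30 and -0.38 ± 0.29. ACT2 was above 0 on 6 of 6 arrays, at 0.41, 0.44, 0.98, 0.94, 1.13 and 0.73, and ACT1 was below 0 on 6 of 6, from -0.73 to -0.07. The offset of an array cancels in their difference, which lay between 1.003 and 1.33 on the 6 arrays, so the 2 spots did not change equally. TUB1 exceeded TUB2 on 6 of 6 arrays too, by 0.11 to 0.95.

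SDH, the usual name of succinate dehydrogenase of the respiratory chain, averaged 0.66 ± 0.33 and was above 0 on 6 of 6 arrays. The other spots with names of mitochondrial proteins were closer to 0 or below, with ATP1 at 0.18 ± 0.29, CYC1 at 0.10 ± 0.28, UQCR at 0.08 ± 0.44 and ATP2 at -0.34 ± 0.26. ATP1 exceeded ATP2 by 0.41 to 0.65 on 6 of 6 arrays. USP2 averaged -0.35 ± 0.41 and USP1 -0.59 ± 0.35, the lowest of the 11. On the 3 self-to-self arrays the 11 spots read between -0.56 and 0.23.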

How the data were processed

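Total RNA of ovules was hybridised to 2-dye cDNA arrays. Their log2 ratios, for 11706 spots on 51 arrays, were deposited by the authors as a single table, and the unit was found from the values. The normalization that the authors applied to the clones of the +15 arrays is not given in the sources used here. Each of these arrays averaged close to 0 over clones, so the ratios appear to have been centred. Spot intensities were not used here, so dim spots could not be filtered, and precision is limited by the number of arrays. Dye swaps are already turned to the order of the title. Array medians of +15 over +3 ran from -0.04 to -0.01 and each array measured 9954 to 11577 clones. Exact zeros (105 to 1728 an array) were treated as not measured.

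The forward and swapped array of a set were averaged. A group-means model over all 8 comparisons was fitted with limma 3.58.1 (lmFit, eBayes; prior of 6.12 degrees of freedom and SD 0.184) in R 4.3.3, with Benjamini-Hochberg adjustment over all clones tested and a threshold of 0.05. A clone needed 2 sets with both arrays measured. The p-values measure the spread between sets. One array appears under +5 (set 3) and +10 (set 2) with 19 of 19 control values equal, and was left out of both. The contrasts of +15 with +10 and +20 come from the same fit. The fit was also run on simulated data with independent noise, of the same spread in every comparison for a clone. Such data meet the assumptions of the fit, so the run checks the calculation only and not how well the assumptions hold here. Figures used matplotlib 3.10.9 and pandas 2.3.3.

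Clones were named by rule: among clones measured on all 6 arrays with 1 sign and called, the 12 highest and 12 lowest means and the 4 highest and 4 lowest moderated t, and the 3 highest and 3 lowest contrasts with +10 and with +20 among clones measured on all their arrays. Lists of marker and pathway genes were not used, because no clone has a gene name here. Alternatives covered centring and scaling, missing values, dyes, sets, the spread, the array found under 2 ages and, chosen after seeing the data, blocks of plates and plate 108. The members, the rule and the lists were chosen with earlier results of these data known.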

Additional observations from a re-analysis of the deposited data

Results flagged for a closer look

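The control rows Y5, Y6, Y7 and Y8, which enter no comparison above, stood away from 0 on the +15 arrays. Y5 had set means of 3.67, 5.27 and 2.24 in sets 1, 2 and 3, Y6 of -2.70, -1.01 and -3.65, Y7 of 2.44, 4.20 and 1.75, and Y8 of -0.49, 1.36 and -1.52. On the self-to-self arrays these 4 rows read from -0.20 to 0.49. In each of the 4 rows set 2 was highest and set 3 lowest, and what the rows carry is not given in the sources used here.

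The clones with the largest contrasts with another age over +3 were chosen by that same contrast, so their passing it is no separate finding. Against +10 these were CM041D09 (4.59), CM022E07 (3.86) and CM063D07 (3.18) on the higher side and CM086E04 (-4.61), CM003H10 (-4.13) and CM079H06 (-3.90) on the lower side. Against +20 they were CM037C09 (2.92), CM108B04 (2.81), CM042D09 (2.79) and CM084D01 (2.28) on the higher side. On the lower side they were CM108H11 (-2.87), CM108H06 (-2.05), CM047E06 (-1.57), CM019E04 (-1.54) and CM025C03 (-1.52). Of these, CM037C09, CM019E04 and CM025C03 lost their call in at least 1 setting, with adjusted p up to 0.0837, 0.0801 and 0.216 (limma). The 3 clones of plate 108 among them cannot be matched by name between +15 and +20.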

How the results depend on the processing

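Of the counts and list summaries recomputed under the alternatives, 242 values stayed near the main value and the 60 given below moved. A count stayed if within 1.5 times, and a median if within 1 SD over sets. A percentage stayed if inside its binomial confidence interval, which treats clones as independent. For the values that moved the cause was not tested. Of the named clones' values, 722 kept their call, 6 lost it and 0 reversed. In +15 against +3, limma treat at 2-fold gave 445 clones higher and 331 lower, and arrays centred and scaled gave 500 at least 2-fold lower. The other moves concern the 2 contrasts through +3 and fl against wild type at +10 for the clones chosen at +15. Centring arrays on the clone median, which shifts all fl ratios together by about their median of 0.137, gave 671 clones higher at +15 than at +20; in fl the medians of the clones at least 2-fold higher and lower at +15 became -0.123 and -0.024, and 12.2% of the higher ones were at least 2-fold higher in fl. Centring and scaling gave 145 clones lower than at +20, 16 of them at least 2-fold; in fl, medians of -0.074 and -0.142, with 19.8% of higher and 19% of lower clones at least 2-fold lower. Centring each plate gave 771 higher and 655 lower than at +20, medians of 0.049 and -0.097 in fl, 13.7% of higher clones higher in fl, and 18.2% of lower clones lower and 2.48% higher in fl. Centring 2 blocks of plates, chosen after seeing the data, gave 749 higher than at +20 and, in fl, 14% of higher clones higher, and for lower clones a median of -0.07, 18.2% lower and 2.22% higher. With exact zeros kept as measured, 12.9% of higher clones were lower and 13.3% higher in fl, and lower clones had a median of 0.06 with 9.81% lower. Requiring all sets gave a median of -0.028 for higher clones. Forward arrays alone gave 636 higher and 763 lower than at +10, 156 higher and 118 lower than at +20, and in fl medians of -0.044 and 0.199 with 9.5% of lower clones lower; dye swaps alone gave 256 and 171 against +20, a median of 0.141 for higher clones and 12.2% of them lower in fl. A 4-fold in place of a 2-fold choice at +15 gave, in fl, a median of -0.096 with 31.6% lower and 23.2% higher for higher clones, and -0.64 with 42.9% lower and 2.6% higher for lower clones. Without 1 set in turn, which leaves +10 with 1 set when set 1 or 3 is out, counts ran from 526 to 1108 higher and 555 to 1278 lower than at +10, and from 112 to 223 higher and 62 to 221 lower than at +20; the fl medians ran from -0.024 to 0.051 and from 0.108 to 0.177.

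Set numbers were not taken as pairing the samples in the main fit. Deviations of same-numbered sets of +15 and +20 correlated at 0.27, 0.06 and 0.34 across clones. Those of differently numbered sets ran from -0.31 to 0.12. These values do not show that the sets were unpaired, and whether sets of the same number share material was not tested. With the set number as a replicate block, 3384 clones were higher and 3943 lower at +15 than at +3, 832 and 795 of them at least 2-fold; in the contrasts the block gave 1387 higher and 1753 lower than at +10 and 432 and 434 against +20. The 3 sets, and 2 at +10, limit the precision of every value.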

Other observations

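Of the 851 clones with 1 complete set of +15 against +3, 839 had both arrays measured in set 3 only. Values on single arrays of the other sets were not used for them. In set 3, 165 of these (19.7%) read at least 2-fold higher and 121 (14.4%) at least 2-fold lower. Over all 11480 clones with both arrays measured in set 3 the shares were 10.8% and 10.9%. The extremes of the 839 were CM103H07 at 5.51 and CM105C09 at -5.86, each with no other complete set. A further 48 clones had no value on any of the 6 arrays.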
